A study of Rattus norvegicus with 6 samples.

Results

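High dietary protein was compared with normal dietary protein in the livers of rats whose diets were both rich in sucrose. The comparison is the HP-HS array minus the NP-HS array, on the deposited log2 scale, and uses 2 of the 6 arrays of the study. HP-HS is a high protein, high sucrose, low fat diet, and NP-HS is the normal protein diet with the same high sucrose and low fat background. The other 4 arrays are HP and NP, which are high and normal protein on a low fat diet without high sucrose, and HP-HS-HF and NP-HS-HF, which are high and normal protein on a high sucrose, high fat diet (sucrose plus fat below). All were adult male Wistar rats, 30 in all, that had first eaten the normal protein diet for 10 days and then their own diet for 5 weeks. The diets differed in protein, carbohydrate and fat content, and their composition is not used here, so more protein and less of another nutrient cannot be told apart. The rats were killed 2 h after a test meal of 87.6 kJ, so every liver was in the fed state. Each array holds 1 pool of liver RNA from 5 rats, which hides the variation between rats and leaves no diet with a replicate. No p-value can therefore be given, and a difference between 2 arrays includes the spread between pools and between hybridisations, which was not measured. The number of arrays limits the precision of every value below. Every difference is given as a log2 value, HP-HS minus NP-HS unless another pair is named, and a log2 difference of 0.585 is 1.5-fold.

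The liver receives amino acids from a meal through the portal vein. It removes their nitrogen by transamination and in the urea cycle, and it uses the carbon for glucose or oxidation. Sugar drives the liver the other way, through insulin and the sugar-sensing factor ChREBP, toward glycolysis and fatty acid synthesis. Glucagon, which a protein meal releases along with insulin, acts through cAMP and its response element to raise genes of gluconeogenesis and amino acid breakdown. The liver also makes hormones, among them hepcidin, which blocks iron export from gut cells and macrophages, and it answers growth hormone through the factor STAT5.

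Of 11421 named genes tested, 61 were higher in HP-HS by 1.5-fold or more (0.534%) and 39 were lower by as much (0.341%). At any size, 5383 of the 11421 were higher and 6030 were lower. At 1.2-fold or more, 560 genes were higher (4.90%) and 583 were lower (5.10%). Over all 20450 probe sets tested, 178 were 1.5-fold or more higher (0.870%) and 107 were as much lower (0.523%), of which 114 and 67 had no gene name in the annotation used. The median difference over all named genes was -0.009, and the quartiles of the probe sets were -0.10 and 0.09. The last gene inside the 1.5-fold limit among the higher ones was Slc25a21 at 0.588 and the first outside it was Enc1 at 0.584, and among the lower ones these were Gprasp3 at -0.590 and Actrt2 at -0.583, so the limit does not mark a gap in the values. The 6 arrays had medians from 6.216 to 6.248 and pairwise correlations over probe sets from 0.9949 to 0.9964.

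The promoters of 4 of the genes described below are shown first, chosen with their values known, because they hold letters known as binding sites of factors of cAMP, STAT and BMP signalling. They are from RefSeq on the rat build GRCr8 and run from 250 bases before to 50 bases after the annotated start, 5′ to 3′ on the strand of the gene. Capitals mark every match, on either strand, to TGACGTCA (the cAMP response element), TGACG (its core, which overlaps the full element), CACGTG (the E box), GGCGCC (the core of elements bound by SMAD proteins of the BMP pathway) and TTCNNNGAA (the STAT element). Hamp encodes hepcidin and had the largest lower value, Cish encodes a STAT5-induced inhibitor of cytokine signalling, Slc25a25 encodes a mitochondrial carrier of ATP-magnesium and phosphate, and Ppargc1a encodes the coactivator PGC-1alpha of gluconeogenesis.
Hamp, chr1:95300222-95300521, minus strand: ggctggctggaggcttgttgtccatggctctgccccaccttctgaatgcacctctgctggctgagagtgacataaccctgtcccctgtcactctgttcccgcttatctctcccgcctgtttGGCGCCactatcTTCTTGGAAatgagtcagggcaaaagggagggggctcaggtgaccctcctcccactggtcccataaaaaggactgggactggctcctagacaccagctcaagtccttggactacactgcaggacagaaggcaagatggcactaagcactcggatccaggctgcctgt
Cish, chr8:116850719-116851018, plus strand: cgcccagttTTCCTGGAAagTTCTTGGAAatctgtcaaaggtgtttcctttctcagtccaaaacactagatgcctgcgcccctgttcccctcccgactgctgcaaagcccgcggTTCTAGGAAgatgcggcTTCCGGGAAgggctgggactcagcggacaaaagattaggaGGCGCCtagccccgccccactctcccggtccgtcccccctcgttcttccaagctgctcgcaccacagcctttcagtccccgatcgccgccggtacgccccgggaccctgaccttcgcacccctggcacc
Slc25a25, chr3:36116532-36116831, minus strand: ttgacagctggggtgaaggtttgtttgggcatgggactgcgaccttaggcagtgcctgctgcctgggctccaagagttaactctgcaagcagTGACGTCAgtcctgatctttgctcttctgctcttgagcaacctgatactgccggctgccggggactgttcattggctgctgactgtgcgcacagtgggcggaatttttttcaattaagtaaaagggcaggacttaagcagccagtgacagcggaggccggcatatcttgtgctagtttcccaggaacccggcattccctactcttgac
Ppargc1a, chr14:63634058-63634357, plus strand: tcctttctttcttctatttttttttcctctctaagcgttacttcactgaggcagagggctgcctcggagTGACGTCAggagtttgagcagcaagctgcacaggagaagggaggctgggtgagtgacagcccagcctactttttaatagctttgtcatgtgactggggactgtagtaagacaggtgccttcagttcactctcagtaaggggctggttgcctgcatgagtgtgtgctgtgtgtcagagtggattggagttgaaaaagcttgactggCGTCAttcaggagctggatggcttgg
In Hamp, GGCGCC begins 129 bases before the start and TTCTTGGAA begins 117 bases before it. Cish holds 4 matches to TTCNNNGAA, at 241, 230, 136 and 119 bases before the start, and GGCGCC at 79. In Slc25a25 and Ppargc1a, TGACGTCA begins 158 and 181 bases before the start. It also begins 128 bases before the start of Cldn7, which differed by -0.20. Of 33469 promoters of this length, 1.83% held TGACGTCA, 21.2% TGACG, 6.42% CACGTG, 11.0% GGCGCC and 8.87% TTCNNNGAA. The 50 promoters of 47 genes in the higher group held TGACGTCA in 3 promoters (of Ndufa10, Slc25a25 and Wsb1) and TGACG in 12. They held CACGTG in 4, GGCGCC in 10 and TTCNNNGAA in 2 (of Plppr1 and Prlr). The 34 promoters of 32 genes in the lower group held these letters in 0, 2, 4, 6 and 4 promoters, in the same order, and the 4 with TTCNNNGAA were those of Cish, Hamp, Osgin1 and Vgll4. A match describes the letters in this window and not the binding of a factor, which was not analysed here.

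Hepcidin showed the largest difference of any named gene in either direction. Hamp (probe set 10720829) had a log2 level of 6.94 on HP-HS and 9.72 on NP-HS, 9.21 on HP and 9.03 on NP, and 9.20 on HP-HS-HF and 9.34 on NP-HS-HF. The HP-HS array was the lowest of the 6, at -2.26 from the median of the arrays of the other pairs (the rest, here and below). The 5 other arrays lay between 9.03 and 9.72. The difference of -2.79 is 6.90-fold lower in HP-HS, and the differences of the other pairs were 0.17 on low fat and -0.15 on sucrose plus fat. The low value thus belongs to 1 array, and the number of rats behind it cannot be told from a pool.

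The other 25 tested genes of iron handling and BMP signalling, the pathway that sets hepcidin, lay between -0.36 and 0.25, and the list had a median of -0.010 beside -0.009 over all genes. None of its 26 members was higher by 1.2-fold or more and 3 were lower by as much, among them Bmp2, a BMP ligand made by liver endothelium, at -0.36 and Hfe, a sensor of iron-loaded transferrin, at -0.31. Bmp6, the main BMP ligand of iron sensing, differed by 0.07. The SMAD target genes Smad7 and Id1, which respond to the same pathway, differed by 0.13 and -0.10, and Atoh8 by 0.25. The transferrin receptor Tfrc differed by 0.23, the iron exporter Slc40a1 by 0.04 and transferrin, Tf, by 0.02. Among 25 acute phase genes, which share with hepcidin a response to inflammation, Orm1 was higher by 0.43 and Socs3 by 0.38, and Lbp (-0.43) and A2m (-0.98) were lower. The fibrinogen gene Fgb (-0.05), haptoglobin, Hp (-0.00), and Crp (-0.03) were close to 0.

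**Figure D1:**
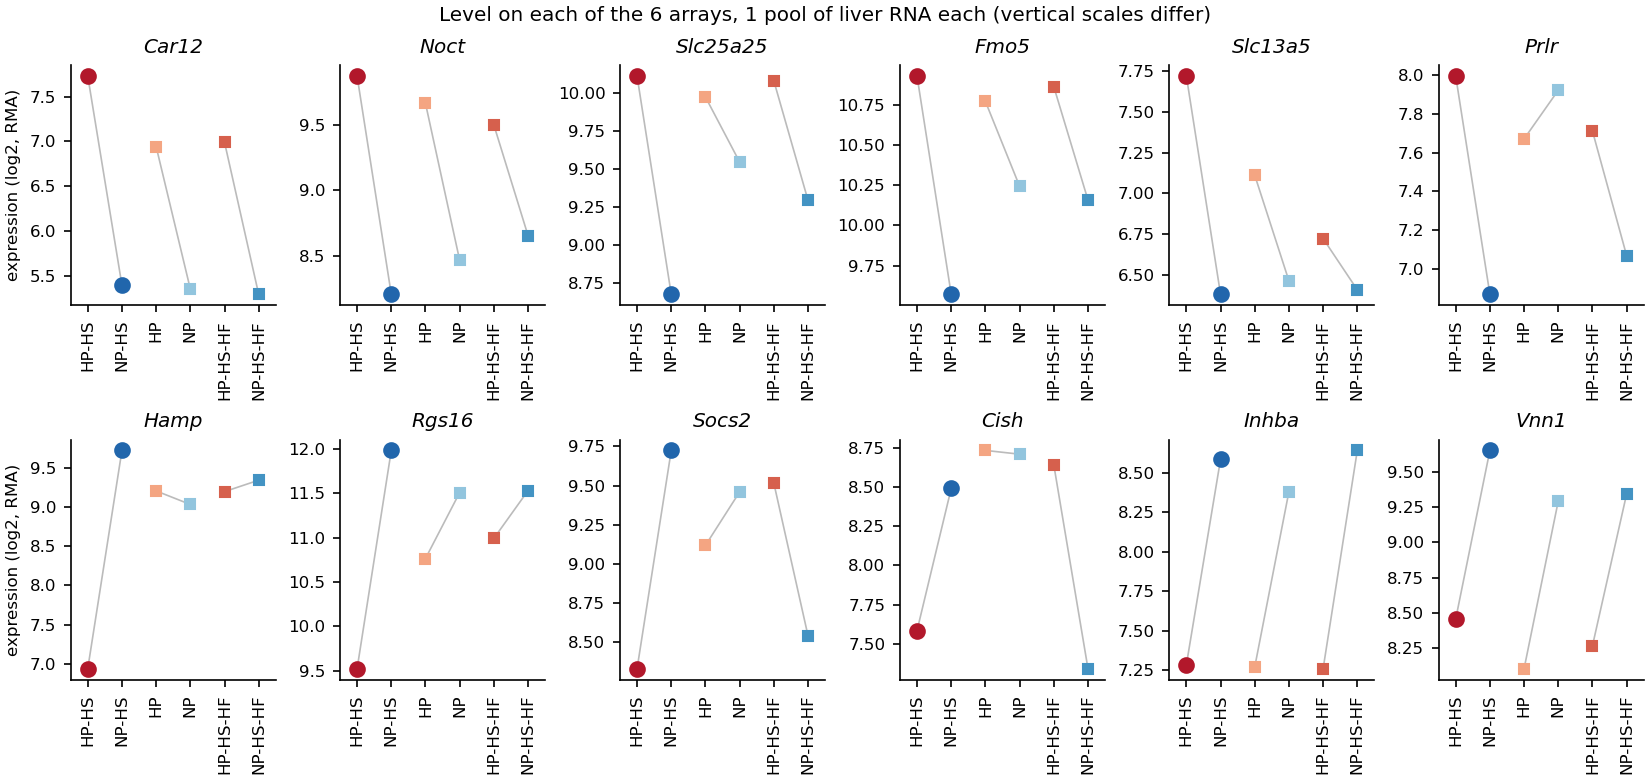
Log2 expression of 12 genes on each of the 6 arrays, each a pool of 5 rats; circles are the HP-HS and NP-HS arrays, squares the other pairs, and lines join the arrays of a pair. Hamp is low on the HP-HS array alone (6.94, the others 9.03 to 9.72), while Inhba and Vnn1 are lower with high protein in each of the 3 pairs.

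Rgs16, a regulator of G protein signalling that sugar raises in the liver, followed Hamp in size. Its levels were 9.52 on HP-HS and 11.98 on NP-HS, 10.76 on HP and 11.51 on NP, and 10.99 on HP-HS-HF and 11.53 on NP-HS-HF. NP-HS was the highest of the 6 arrays and HP-HS the lowest, and each of the 3 high protein arrays lay below each of the normal protein arrays. The difference was -2.46, or 5.51-fold lower, against -0.74 on low fat and -0.54 on sucrose plus fat. Arrdc3, an arrestin-domain protein that fasting raises and insulin lowers, had 10.91 on HP-HS and 12.07 on NP-HS, with differences of -1.16, -0.65 and -0.77 on high sucrose, on low fat, and on sucrose plus fat. The list of insulin signalling and FoxO genes as a whole had a median of -0.024 over 22 members, with 0 higher and 2 lower by 1.2-fold or more, which were Rgs16 and Foxo3 (-0.33).

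The largest higher value was that of Car12, a carbonic anhydrase of the plasma membrane. Car12 had 7.73 on HP-HS and 5.40 on NP-HS, 6.94 on HP and 5.36 on NP, and 6.99 on HP-HS-HF and 5.30 on NP-HS-HF. The normal protein arrays lay between 5.30 and 5.40 and HP-HS was the highest of the 6, and the difference was 2.33, or 5.03-fold. These normal protein levels were dim, just above the limit of log2 5.14 that the filter set for the mean of the 6 arrays. The cytosolic enzyme Car2 had 8.50 on HP-HS and 7.50 on NP-HS, a difference of 1.01, and mitochondrial Car5a, which supplies bicarbonate to the urea cycle, differed by 0.45. Car1, the red cell form, went the other way, with 5.39 on HP-HS and 6.28 on NP-HS, a difference of -0.89, beside a median of -0.18 over 6 red cell genes. Of 17 genes of carbonic anhydrases and bicarbonate transport, 4 were higher and 1 was lower by 1.2-fold or more.

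Spsb4, a substrate receptor of a ubiquitin ligase, was higher by 1.72, and Plppr1, a membrane protein related to lipid phosphatases, by 1.43. Noct, the clock-controlled gene nocturnin, had 9.87 on HP-HS and 8.21 on NP-HS, 9.66 on HP and 8.47 on NP, and 9.50 on HP-HS-HF and 8.65 on NP-HS-HF. HP-HS was the highest and NP-HS the lowest array, and the difference of 1.67 compares with 1.199 on low fat and 0.84 on sucrose plus fat. Slc25a25 had 10.11 on HP-HS and 8.68 on NP-HS, 9.97 on HP and 9.55 on NP, and 10.08 on HP-HS-HF and 9.29 on NP-HS-HF. Here the high protein arrays lay close together and NP-HS lay apart, at -1.08 from the median of the rest, and the difference of 1.44 was 2.71-fold. Fmo5, a flavin monooxygenase, showed the same order of arrays, with 10.93 on HP-HS and 9.57 on NP-HS and a difference of 1.35, beside 0.53 and 0.70 in the other pairs.

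Slc13a5, the citrate importer of the plasma membrane, had 7.72 on HP-HS and 6.38 on NP-HS, 7.11 on HP and 6.46 on NP, and 6.72 on HP-HS-HF and 6.41 on NP-HS-HF. HP-HS lay 1.13 above the median of the rest and the difference was 1.34. Klhl25, an adaptor of a cullin ubiquitin ligase, had 9.26 on HP-HS and 8.23 on NP-HS, and the 4 other arrays lay between 9.05 and 9.30, so that its difference of 1.03 came with a low NP-HS array. Further genes among the 20 largest were Ubd, the ubiquitin-like modifier FAT10 (1.34), Trim36, a ubiquitin ligase (1.32), Atp1b1, the beta subunit of the sodium pump (1.12), Wsb1, a ubiquitin ligase component (1.07), Mcm10, a factor of DNA replication (1.07), Egln3, a prolyl hydroxylase of oxygen sensing (1.00), and Nceh1, a cholesterol ester hydrolase (0.97).

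Among the lower genes, Inhba, which encodes the subunit of activin A, had 7.28 on HP-HS and 8.59 on NP-HS, a difference of -1.30, and Vnn1, the pantetheinase vanin, had 8.46 on HP-HS and 9.65 on NP-HS, a difference of -1.195. Both were lower with high protein by similar amounts in the other pairs, -1.11 and -1.38 for Inhba and -1.19 and -1.08 for Vnn1. Further lower genes were Reg4, a secreted lectin (-1.12), Mst1r, the receptor of macrophage-stimulating protein (-1.12), Slc34a2, a sodium and phosphate cotransporter (-1.05), Fabp7, a fatty acid binding protein (-1.02), Aph1b, a subunit of gamma-secretase (-1.02), Derl3, a factor of protein disposal from the endoplasmic reticulum (-0.93), Ldaf1, a lipid droplet assembly factor (-0.87), and Slco1a4, an organic anion importer (-0.87). Of the 30 genes of activins, inhibins and growth factors, 0 were higher and 7 were lower by 1.2-fold or more, among them Inhbc (-0.36), Pdgfc (-0.52) and Fgf21 (-0.52), and the list median was -0.078.

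**Figure D2:**
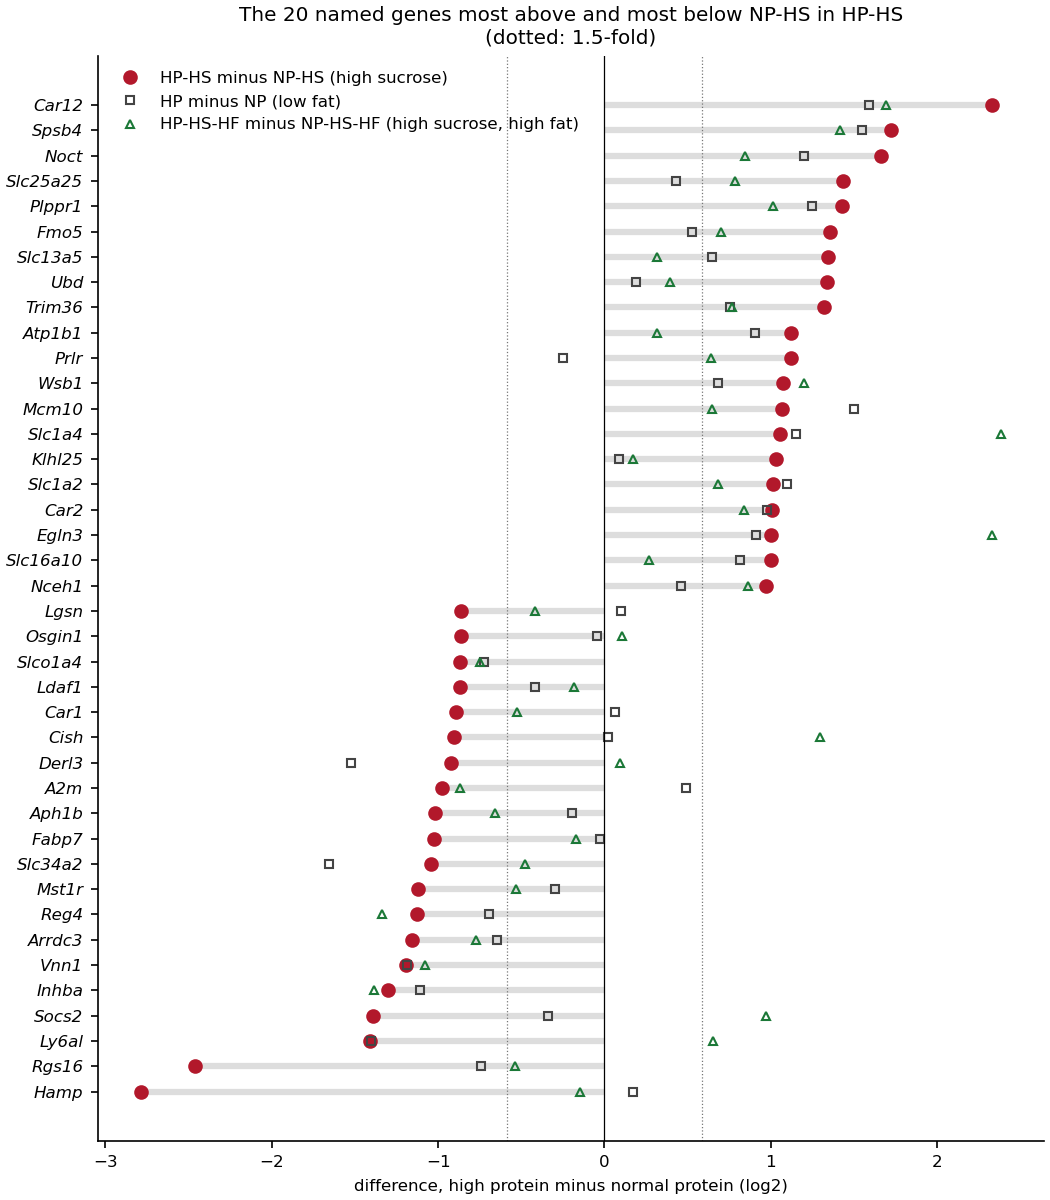
The 20 named genes with the largest higher and the 20 with the largest lower values, as the log2 difference HP-HS minus NP-HS, with the differences of the low fat pair and the sucrose plus fat pair beside them. Hamp (-2.79) and Rgs16 (-2.46) stand apart at the lower end and Car12 (2.33) at the upper end.

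Aminotransferases and enzymes of serine, glycine and histidine breakdown formed the pathway list with the highest median. Of its 21 tested genes, 11 were higher by 1.2-fold or more and 0 were lower by as much, with a median of 0.278 beside -0.009 over all genes. Got1, the cytosolic aspartate aminotransferase, had 12.02 on HP-HS and 11.13 on NP-HS, 11.81 on HP and 11.17 on NP, and 11.64 on HP-HS-HF and 11.10 on NP-HS-HF. The 3 normal protein arrays lay below the 3 high protein arrays, and HP-HS was the highest, with a difference of 0.89. Sds, the serine dehydratase, had 11.47 on HP-HS and 10.83 on NP-HS, and its difference of 0.64 stood beside 0.59 and 0.27 in the low fat and the sucrose plus fat pair. Gpt, the alanine aminotransferase, differed by 0.56, Gldc, of the glycine cleavage system, by 0.46, Prodh, the proline oxidase, by 0.46, Tat, the tyrosine aminotransferase, by 0.43 and Oat, the ornithine aminotransferase, by 0.43. Got2 (-0.07), the mitochondrial partner of Got1, and Glud1 (0.01), glutamate dehydrogenase, did not reach 1.2-fold. The list medians of the other pairs were 0.083 on low fat and 0.130 on sucrose plus fat.

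In the urea cycle and ammonia handling, 4 of 9 genes were higher by 1.2-fold or more and 0 lower, with a median of 0.247. Asl, argininosuccinate lyase, had 11.35 on HP-HS and 10.77 on NP-HS, a difference of 0.58. Slc25a15, the ornithine carrier, differed by 0.43, Gls2, liver glutaminase, by 0.33, Rhbg, an ammonium transporter, by 0.31 and Nags, which makes the activator of the first step, by 0.25, which is under 1.2-fold. Smaller differences were seen for Ass1 (0.16), Arg1 (0.15), Cps1 (0.02) and Otc (-0.06). Of 17 amino acid transporters of the plasma membrane, 7 were higher and 0 were lower by 1.2-fold or more. Slc1a4, a carrier of neutral amino acids, had 7.75 on HP-HS and 6.69 on NP-HS, and 9.01 on HP-HS-HF and 6.63 on NP-HS-HF, so its difference was 1.06 on high sucrose and 2.38 on sucrose plus fat. The glutamate transporter Slc1a2 differed by 1.02 and the aromatic amino acid transporter Slc16a10 by 1.00, while Slc38a2, Slc6a6, Slc38a1 and Slc7a2 lay between 0.28 and 0.38.

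Other routes of amino acid breakdown gave fewer members, with list medians of 0.093 for tryptophan and tyrosine, 0.054 for methionine, cysteine and taurine and 0.040 for branched-chain amino acids. Acmsd, which directs tryptophan carbon away from NAD synthesis, was higher by 0.96, with 9.16 on HP-HS and 8.20 on NP-HS, whereas Tdo2, the first enzyme of tryptophan breakdown, differed by 0.09. Cbs, which starts the conversion of homocysteine to cysteine, was higher by 0.39, and Csad, an enzyme of taurine synthesis, was lower (-0.84), with 8.96 on HP-HS and 9.80 on NP-HS. Among 20 genes of branched-chain amino acid breakdown, 1 was higher and 1 was lower by 1.2-fold or more. These shares of 5.00% each were near those of all genes, 4.90% and 5.10%. The higher gene was the phosphatase Ppm1k, which activates the pathway's dehydrogenase (0.61), and the lower was the kinase Bckdk, which inactivates it (-0.31). The other 18 of these genes lay under 1.2-fold, among them the dehydrogenase subunit Bckdha at 0.15. The list of the integrated stress response and serine synthesis, which low amino acid supply raises, had 0 of 20 genes higher and 2 lower by 1.2-fold or more, Fgf21 and Nupr1 (-0.33), with Asns at -0.14 and Atf4 at -0.04.

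Of 24 cAMP-responsive and immediate early genes, 7 were higher by 1.2-fold or more and 0 were lower. They were Noct, Slc25a25, the immediate early factor Fos (0.56), the phosphodiesterase Pde4b (0.51), Ppargc1a (0.44), Tat and Ier3 (0.36). The list median was 0.08. Ppargc1a, whose promoter is shown above with TGACGTCA, had 6.58 on HP-HS and 6.14 on NP-HS, while the other 4 arrays lay between 6.18 and 6.44. Noct, the member with the largest difference, held neither TGACGTCA nor TGACG in its promoter window, nor did either window of Pde4b. In gluconeogenesis, Pck1, the cytosolic carboxykinase, differed by 0.42, with 12.53 on HP-HS and 12.12 on NP-HS, and 2 of 14 genes, Pck1 and Ppargc1a, were higher by 1.2-fold or more. G6pc1 (0.02), Fbp1 (-0.11) and Pc, pyruvate carboxylase (-0.24), did not reach that size, and Cebpa (-0.29) was the 1 member lower by as much. Among 17 clock genes Noct stood alone at 1.5-fold, with Per2 at 0.28, Nr1d1 at 0.22, Cry1 at 0.22, Bmal1 at 0.01, Dbp at -0.02 and Bhlhe40, a clock repressor, at -0.40.

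**Figure D3:**
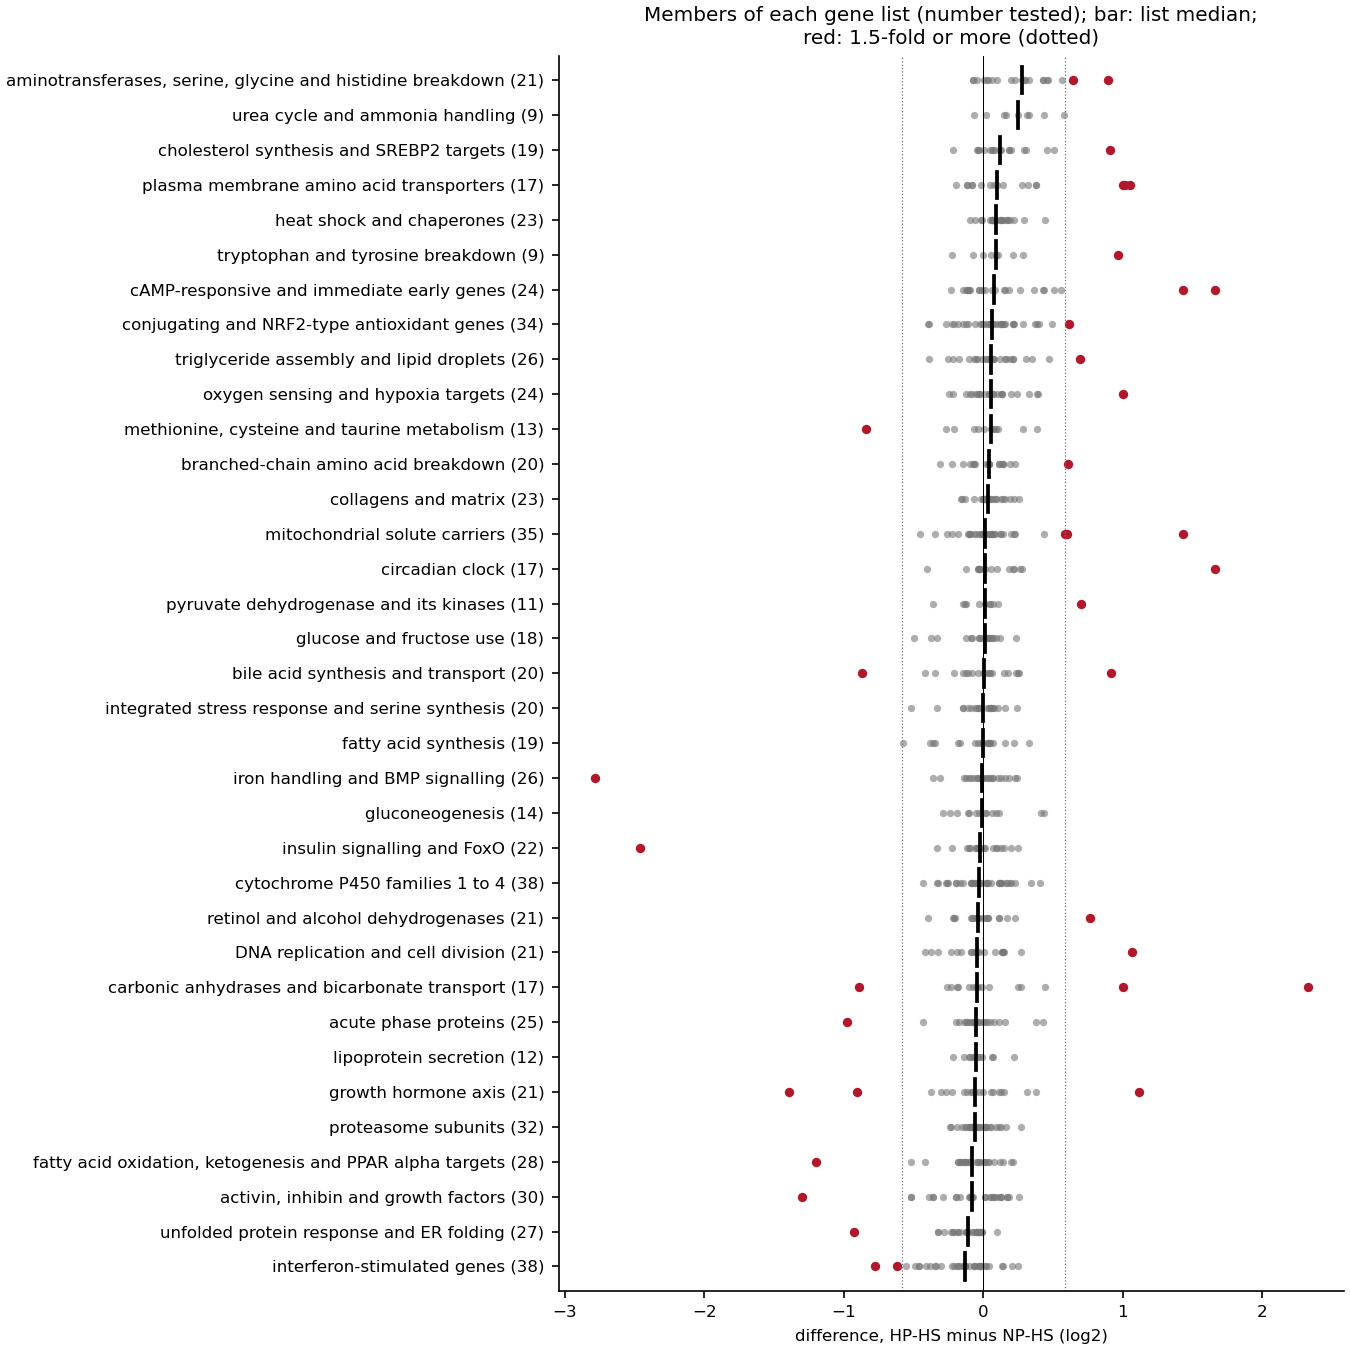
Log2 difference HP-HS minus NP-HS of the tested members of 35 gene lists (number tested in brackets), sorted by median; the bar is the list median and red points are 1.5-fold or more apart. The list of aminotransferases and of serine, glycine and histidine breakdown has the highest median (0.278) and the interferon-stimulated genes the lowest (-0.133).

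Genes of sugar use and fatty acid synthesis gave small differences with a few lower members. Of 18 genes of glucose and fructose use, 0 were higher and 3 were lower by 1.2-fold or more. These were Pklr, liver pyruvate kinase, with 9.97 on HP-HS and 10.46 on NP-HS (-0.49), Txnip, a sugar-induced arrestin (-0.38), and Gckr, the glucokinase regulator (-0.33). The fructokinase Khk differed by -0.08 and the factor ChREBP, Mlxipl, by 0.05. Of 19 genes of fatty acid synthesis, 1 was higher and 4 were lower by 1.2-fold or more, and the list median was -0.000, which turned slightly positive with quantile or loess normalization. Me1, malic enzyme, had 7.64 on HP-HS and 8.21 on NP-HS (-0.57), and Mid1ip1, an activator of acetyl-CoA carboxylase, differed by -0.38. Scd, the stearoyl-CoA desaturase, had 12.22 on HP-HS and 12.58 on NP-HS, 11.74 on HP and 12.79 on NP, and 11.13 on HP-HS-HF and 12.46 on NP-HS-HF. Its difference was thus -0.36 on high sucrose, against -1.04 on low fat and -1.34 on sucrose plus fat, and HP-HS held the highest Scd level of the 3 high protein arrays. Acaca, the carboxylase of this pathway, showed the same order with -0.34, -0.47 and -0.75, and Fasn differed by -0.17, -0.52 and -0.33. Acacb, the carboxylase isoform that controls fat oxidation, was the 1 member higher, by 0.33.

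Other lipid genes were split in direction. Of 26 genes of triglyceride assembly and lipid droplets, 4 were higher and 1 was lower by 1.2-fold or more. Cd36, a fatty acid importer, had 7.95 on HP-HS and 7.26 on NP-HS (0.69), and another probe set of the gene gave 0.61. G0s2, an inhibitor of fat breakdown, differed by 0.47, Lipe, hormone-sensitive lipase, by 0.35, Gpam, the first enzyme of glycerolipid synthesis, by 0.31 and Angptl4 by -0.39. Of 28 genes of fatty acid oxidation, ketogenesis and other PPAR alpha targets, 0 were higher and 3 were lower by 1.2-fold or more, namely Vnn1, Fgf21 and Decr1 (-0.42), while Ppara itself differed by -0.00. Of 12 genes of lipoprotein secretion, 0 were 1.2-fold apart in either direction. In the pyruvate dehydrogenase list, the activating phosphatase Pdp2 was higher by 0.71 and the pyruvate carrier subunit Mpc2 was lower (-0.36).

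Cholesterol synthesis and SREBP2 targets had 5 of 19 genes higher by 1.2-fold or more and 0 lower, with a median of 0.119. Insig1, the sterol-regulated anchor of SREBP in the endoplasmic reticulum, had 10.04 on HP-HS and 9.13 on NP-HS, a difference of 0.91, and another probe set of the gene gave 0.92. Tm7sf2 (0.51), Sqle (0.46), Dhcr7 (0.31) and Idi1 (0.29), enzymes of the pathway, were the other 4. On low fat the list median was 0.343, with Sqle at 1.40, and on sucrose plus fat it was 0.073. In bile acid synthesis and transport, Cyp7b1, the hydroxylase of the alternative pathway, was higher by 0.92, with 7.83 on HP-HS and 6.91 on NP-HS, and Cyp7a1, the rate-limiting enzyme of the classical pathway, differed by 0.25. Slco1a4 (-0.87), the bile acid receptor Nr1h4 (-0.42) and Hsd3b7 (-0.35) were lower.

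Genes that answer growth hormone showed some of the largest differences, in both directions. Socs2, a STAT5-induced inhibitor of the growth hormone receptor, had 8.33 on HP-HS and 9.72 on NP-HS, 9.12 on HP and 9.46 on NP, and 9.52 on HP-HS-HF and 8.54 on NP-HS-HF. Cish had 7.59 on HP-HS and 8.49 on NP-HS, 8.73 on HP and 8.71 on NP, and 8.64 on HP-HS-HF and 7.34 on NP-HS-HF. For both genes the HP-HS and NP-HS-HF arrays were the lowest pair of the 6, so the difference was -1.39 for Socs2 and -0.91 for Cish on high sucrose, and 0.97 and 1.30 on sucrose plus fat. Onecut1, a hepatocyte factor that growth hormone raises, differed by -0.37 and 1.42 in these pairs. Prlr, the prolactin receptor, had 7.99 on HP-HS and 6.87 on NP-HS, 7.67 on HP and 7.92 on NP, and 7.71 on HP-HS-HF and 7.07 on NP-HS-HF, a difference of 1.12 on high sucrose, -0.25 on low fat and 0.64 on sucrose plus fat. Of the 21 genes of this list, 3 were higher and 5 were lower by 1.2-fold or more, and the median was -0.059. Igf1 (-0.09) and Igfals (-0.12), the circulating growth factor and its carrier subunit, did not reach that size.

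**Figure D4:**
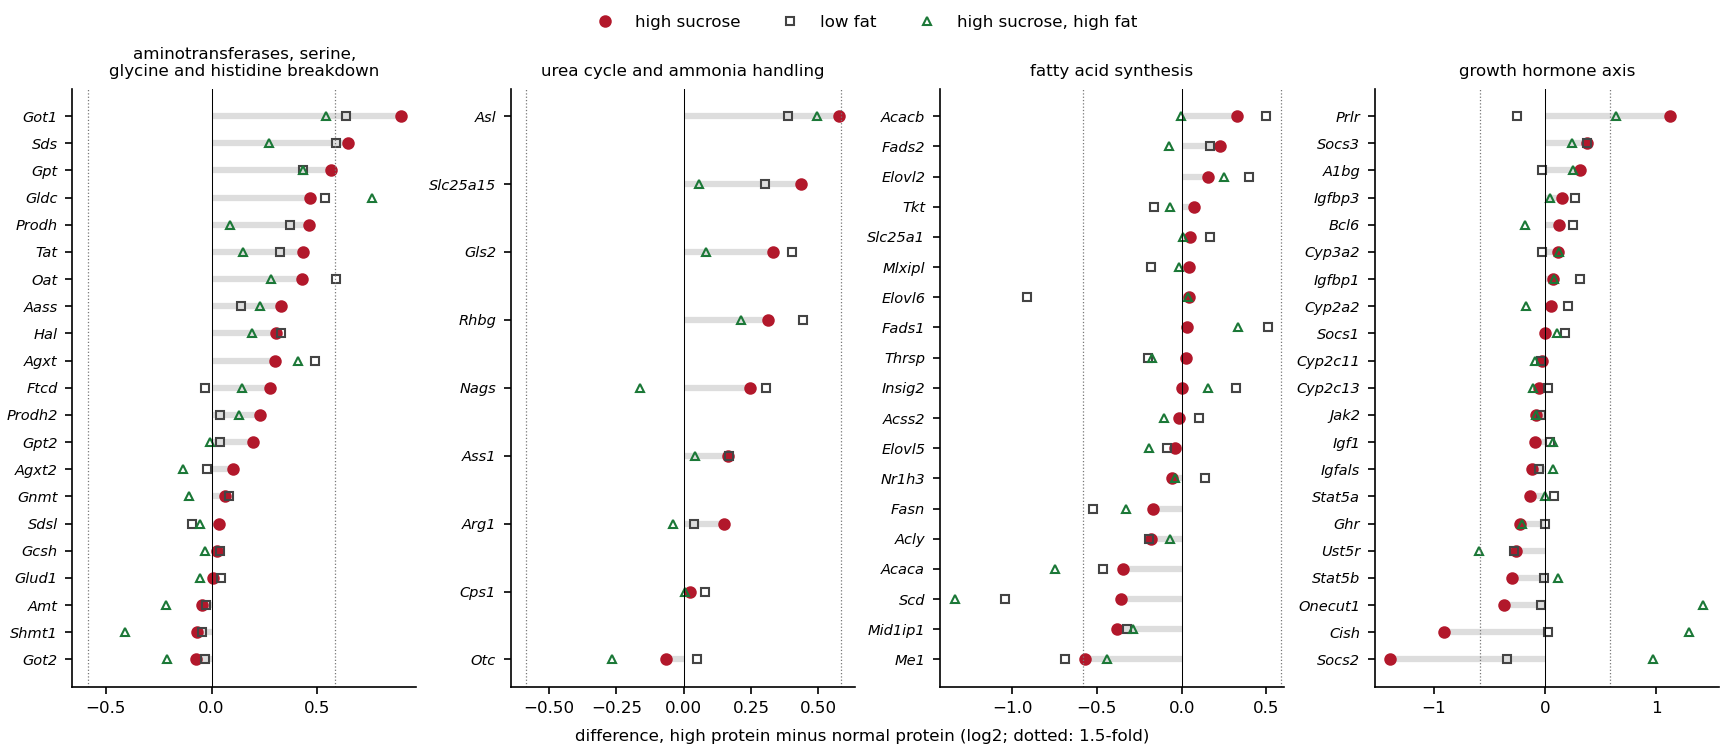
Log2 difference high protein minus normal protein of each tested gene of 4 lists, on high sucrose (filled circles), on low fat (squares) and on sucrose plus fat (triangles); scales differ between panels and dotted lines are 1.5-fold. Most aminotransferase and urea cycle genes lie to the right of 0 on high sucrose, Scd lies farthest left in the other pairs, and Cish and Socs2 lie on opposite sides of 0 on high sucrose and on sucrose plus fat.

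Interferon-stimulated genes had the lowest median of any pathway list, -0.133 over 38 genes. Of these, 31 were lower at any size, where 6030 of all 11421 genes were, 11 were lower by 1.2-fold or more and 0 were higher by as much. Oas1i, an antiviral oligoadenylate synthetase gene, had 6.70 on HP-HS and 7.47 on NP-HS, 6.91 on HP and 7.62 on NP, and 6.51 on HP-HS-HF and 6.67 on NP-HS-HF. Its differences were -0.78, -0.71 and -0.16. Further lower members were Rsad2, or viperin (-0.62), Oasl2 (-0.55), Usp18 (-0.49) and Oas1a (-0.46). Oas genes are a family of near copies, so probe sets may share signal between them. The low fat pair had a list median of -0.129 and the sucrose plus fat pair one of 0.045.

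The unfolded protein response and folding list had 26 of 27 genes lower at any size, beside 6030 of all 11421 genes, with 4 by 1.2-fold or more, and a median of -0.108. Derl3 had 7.72 on HP-HS and 8.64 on NP-HS (-0.93), Xbp1, the transcription factor of this response, differed by -0.32, Sec61b, of the translocon, by -0.32 and Dnajc3 by -0.28, while the main chaperone Hspa5 differed by -0.03. The list also holds Cryl1 (-0.23), which is no folding gene. The median was -0.137 on low fat and 0.092 on sucrose plus fat. Heat shock genes and chaperones of the cytosol had a median of 0.094, with 2 of 23 higher by 1.2-fold or more, among them Fkbp5, a glucocorticoid-induced gene, at 0.45.

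Oxidation, conjugation and transport genes had members in both directions, as did all genes, of which 4.90% were higher and 5.10% lower by 1.2-fold or more. Near these shares were the higher P450 genes (5.26%) and the lower mitochondrial carriers (5.71%) below. Of 34 conjugating and NRF2-type genes, 6 were higher and 3 were lower by 1.2-fold or more, with Gstm3 at 0.61, Akr7a3 at 0.49, the factor NRF2 itself, Nfe2l2, at -0.39 and Aldh1a1 at -0.39. Nqo1, a standard NRF2 target, had 8.32 on HP-HS and 8.54 on NP-HS, 9.06 on HP and 7.86 on NP, and 9.41 on HP-HS-HF and 8.75 on NP-HS-HF, so its difference of -0.23 stood against 1.19 and 0.65. Of 38 cytochrome P450 genes of families 1 to 4, 2 were higher and 4 were lower by 1.2-fold or more, and Cyp2b2 differed by -0.33 here against -1.27 on low fat and -1.31 on sucrose plus fat. Of 35 mitochondrial solute carriers, 4 were higher by 1.2-fold or more, namely Slc25a25, the glutamate carrier Slc25a22 (0.60), Slc25a21, the oxodicarboxylate carrier (0.59), and Slc25a15, and 2 were lower. Of 24 genes of oxygen sensing, 4 were higher and 0 lower, Egln3, Bnip3 (0.40), P4ha1 (0.39) and Ankrd37 (0.33), and Egln3 differed by 2.33 on sucrose plus fat.

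Other lists held few members apart. Proteasome subunits had 1 of 32 and collagens and matrix 0 of 23 genes 1.2-fold or more apart. Of 21 retinol and alcohol dehydrogenases, Adh6 was higher by 0.77 and Aldh1a1 was lower. Among 21 genes of DNA replication and cell division, Mcm10 was higher by 1.07 and Aurka by 0.27, and Ccnd1 (-0.42), Rrm1 (-0.37) and Tyms (-0.32) were lower, with another, dim probe set of Rrm1 at 0.01.

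Cell type markers were read beside these values. In bulk liver RNA, fewer cells of a type and less RNA per cell cannot be told apart. Hepatocyte genes had a median of -0.006 over 11 markers, with a summed log2 level of 16.48 on both HP-HS and NP-HS and between 16.45 and 16.48 on the other arrays, and albumin, Alb, differed by 0.03. Of 16 pericentral markers, 6 were higher by 1.2-fold or more, Slc1a4, Slc1a2, Gstm3, Tbx3 (0.44), Oat and Rhbg, and the list median was 0.205. At any size 3 of them were lower, Cyp1a2 (-0.19), Lgr5 (-0.17) and Lect2 (-0.09), and Cyp2e1 differed by 0.13. Of 16 periportal markers, 6 were higher as well, Sds, Asl, Aldh1b1 (0.49), Pck1, Gls2 and Hal, with a median of 0.094, so genes of both zones were among the higher ones. Several of these higher markers are also amino acid genes listed above. Lower at any size were 4 periportal markers, Cyp2f4 (-0.19), Hsd17b13 (-0.16), Ctsc (-0.16) and Igf1 (-0.09).

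Of 17 macrophage markers, 14 were higher at any size, beside 5383 of all 11421 genes. Of the markers, 3 were higher by 1.2-fold or more, 1 was lower by as much (Cxcl16, -0.34), and the median was 0.191. The summed log2 level of these markers was 12.92 on HP-HS and 12.77 on NP-HS, 12.88 on HP and 12.69 on NP, and 12.77 on HP-HS-HF and 12.68 on NP-HS-HF. The complement genes C1qa (0.46), C1qc (0.34) and C1qb (0.29) led the list, Clec4f, a marker of Kupffer cells, differed by 0.15 and Cd68 by 0.19. Hepcidin acts on macrophages, and interferon genes are expressed in them, but the part of these cells in the differences of Hamp and of the interferon genes was not tested. Red cell genes had a median of -0.180 over 6 markers, with a summed level of 11.72 on HP-HS and 11.93 on NP-HS against 11.70 to 12.01 on the other arrays. Bile duct markers had 2 of 9 higher by 1.2-fold or more, Krt8 (0.38) and Krt19 (0.29), and a median of 0.069. Krt8 was far brighter (9.92 on HP-HS and 9.55 on NP-HS) than Krt19 (6.45 and 6.16). The cells that its signal came from cannot be told from bulk RNA. Another probe set of Krt8 gave 0.23, under 1.2-fold. At any size, 3 of the 9 were lower, Cldn7 (-0.20), Muc1 (-0.05) and Krt7 (-0.01). Stellate cell markers were higher at any size in 14 of 15, 0 of them by 1.2-fold or more, with a median of 0.076. Endothelial markers had a median of 0.062 and lymphocyte and neutrophil markers one of -0.001, and none of 9 markers of tissues other than liver was 1.2-fold apart.

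The 3 protein comparisons use 6 separate pools and share no array, so their values can be set side by side, but whether a difference depends on the background was not tested, since no residual degree of freedom is left. Of the 61 higher genes, 52 had the same sign on low fat and 29 were also 1.5-fold or more higher there, which is 47.5% of the 61 and 39.7% of the 73 genes that passed this size on low fat, where 0.639% of all genes did. On sucrose plus fat, 52 had the same sign and 23 reached 1.5-fold, which is 37.7% of the 61 and 31.9% of 72 genes, beside 0.630% of all genes. Of the 39 lower genes, 28 had the same sign on low fat and 29 on sucrose plus fat. Same signs were not counted over all genes. Of these 39, 13 reached 1.5-fold lower on low fat (33.3%, and 27.1% of 48 genes), where 0.420% of all genes did. On sucrose plus fat, 12 of the 39 did so (30.8%, and 23.1% of 52 genes), beside 0.455% of all genes, and 3 were higher by as much.

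At 1.5-fold in all 3 pairs were 18 higher genes, among them Car12, Spsb4, Noct, Plppr1, Slc1a4, Slc1a2, Car2, Egln3, Acmsd and Cyp7b1, and 8 lower genes, Cyp17a1, Nuak1, B3galt1, Slco1a4, Reg4, Arrdc3, Vnn1 and Inhba. Under 1.2-fold in both other pairs were 10 higher genes, Klhl25, Ndufa10, Ces2e, Ascl3, Ethe1, Rtn4ip1, Rgsl2h, Afg2a, Sparcl1 and Pnldc1, and 9 lower genes, Hamp, Fabp7, Osgin1, Tmem125, Marveld1, Vgll4, C9h2orf72, Plek2 and Rsad2. Of all 11421 genes, 10.2% were 1.2-fold or more apart on low fat and 12.9% on sucrose plus fat. Most genes thus lay under 1.2-fold in each of those pairs, and these 2 groups are not particular in that. Ces2e, a carboxylesterase, had 9.96 on HP-HS and 9.04 on NP-HS, with the other arrays between 9.42 and 9.83. Ethe1, a sulfur dioxygenase of mitochondria, had 9.73 on HP-HS and 9.02 on NP-HS, with the others between 9.34 and 9.51. Sparcl1, a matrix protein, had 8.73 on HP-HS and 8.09 on NP-HS, with the others between 8.41 and 8.56.

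The places of HP-HS and NP-HS among the 6 arrays describe each difference further. Of the 61 higher genes, HP-HS was above all 4 arrays of the other pairs in 33 and NP-HS below all 4 in 36, with both in 18, HP-HS alone in 15, NP-HS alone in 18 and neither in 10. Of the 39 lower genes, HP-HS was below all 4 in 23 and NP-HS above all 4 in 26, with both in 16 and neither in 6. Over all 11421 genes, HP-HS lay above all 4 in 1980 and NP-HS below all 4 in 2010. Both held in 414, HP-HS alone in 1566, NP-HS alone in 1596 and neither in 7845. The opposite placing, which is that of the lower genes, was not counted over all genes. These places are part of the size of the difference, since the genes were chosen by it, and are given as a description. For genes named above, the distances of HP-HS and of NP-HS from the median of the other 4 arrays are given in that order. They were -2.26 and 0.52 for Hamp, 1.13 and -0.21 for Slc13a5, and -1.73 and 0.73 for Rgs16. For Klhl25 they were 0.05 and -0.99, for Fmo5 0.42 and -0.93, for Slc25a25 0.35 and -1.08, and for Noct 0.79 and -0.87.

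**Figure D5:**
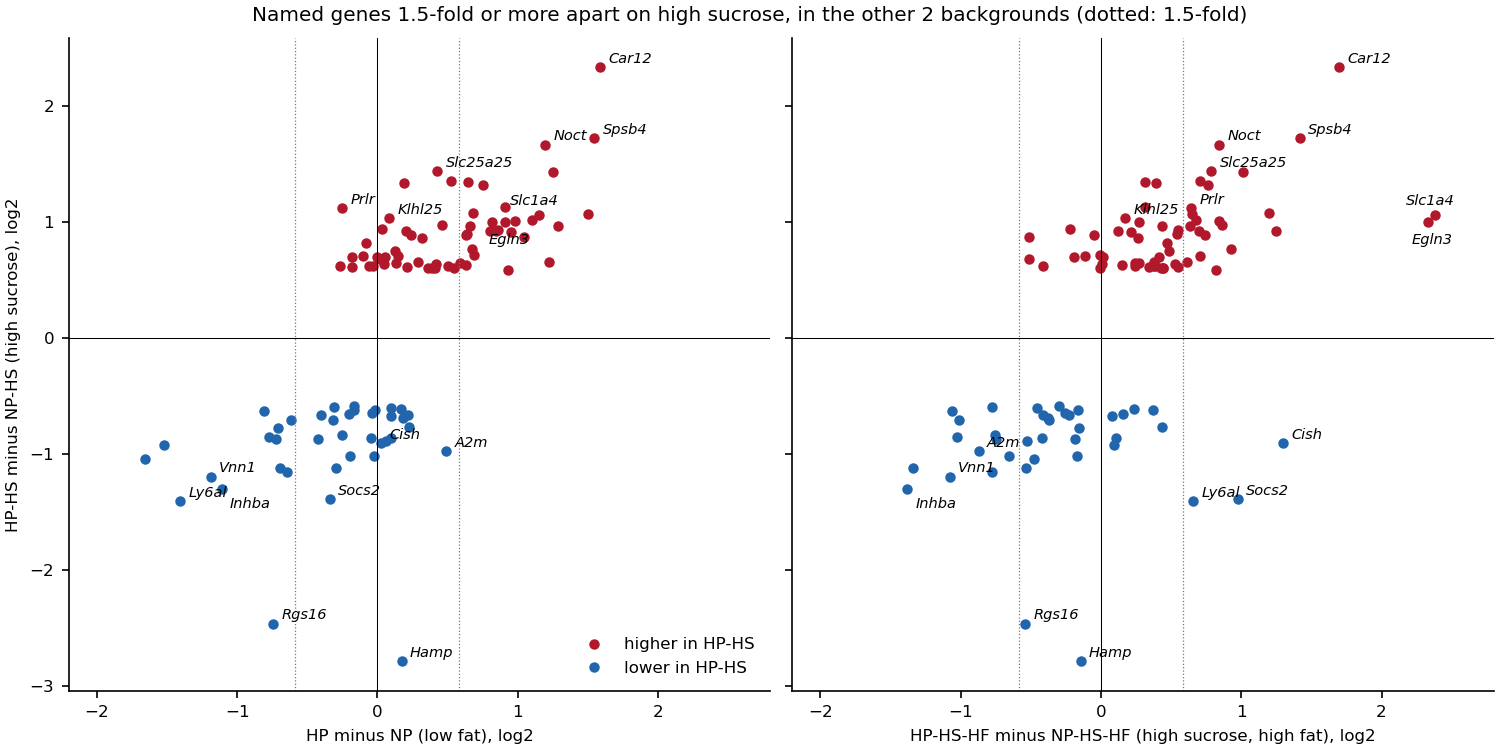
The 100 named genes 1.5-fold or more apart on high sucrose, with their log2 difference HP-HS minus NP-HS on the vertical axis and that of the low fat pair (left) or the sucrose plus fat pair (right) on the horizontal axis; dotted lines are 1.5-fold. Car12, Spsb4, Inhba and Vnn1 lie far from 0 on both axes, Hamp lies near 0 on the horizontal axes, and Cish, Socs2 and Ly6al lie at the lower right of the right panel.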

How the data were processed

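Liver RNA pools of 5 rats each (1500 ng per rat) were hybridised to 6 Affymetrix whole-transcript arrays, 1 per diet, from 100 ng of labelled RNA with an integrity number of at least 7.0, per the labels' protocols. A source field names mice, but the organism and growth entries name Wistar rats, and rats are taken here. The deposited log2 values were summarised by RMA, per the submitters' processing notes. For its version, its settings and any scan batch, no entry is given in the sources used here. The table holds 29214 probe sets with values from 2.40 to 13.92, and 0 columns were left out.

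Probe sets with a mean over the 6 arrays beyond the 30th percentile (log2 5.14) were kept, 20450 in all. Gene names came from the platform annotation. Of 15310 probe sets with 1 symbol, 15279 matched RefSeq by Entrez number and 0 symbols changed, 323 had several symbols and 13581 were not listed. The probe set with the highest mean stood for a gene, which gave 11421 genes. The difference was taken on the deposited log2 values with no further normalization, and with 1 array per diet no test was run. Alternatives changed the filter, the normalization (limma 3.58.1 in R 4.3.3; loess span 0.3) and the choice of probe set. Differences were computed with pandas 2.3.3 in Python 3.11.15, and the scripts were tested on simulated data.

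There were 45 lists, 35 of pathways or families and 10 of markers, written with 985 symbols, of which 819 were tested. The text could name the 20 largest differences in each direction and, per list, members of 1.5-fold or more and the 4 largest; members under that size are named beside them as the rest of a pathway. The members and the lists were chosen with earlier results of these data known. Promoters came from RefSeq (GRCr8), which held 141 of 185 genes that the rule selected.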

Additional observations from a re-analysis of the deposited data

Results flagged for a closer look

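Of the named genes, 3 were 1.5-fold or more apart in opposite directions in the high sucrose pair and in the sucrose plus fat pair. Cish differed by -0.91 on high sucrose (HP-HS minus NP-HS) and by 1.30 on sucrose plus fat (HP-HS-HF minus NP-HS-HF). Socs2 differed by -1.39 and 0.97 in the same pairs. Ly6al differed by -1.41 on high sucrose and by 0.65 on sucrose plus fat, with 4.75 on HP-HS and 6.15 on NP-HS, 5.87 on HP and 7.28 on NP, and 5.99 on HP-HS-HF and 5.34 on NP-HS-HF. Its HP-HS level lay below the filter on dim probe sets, log2 5.14, which the probe set passed through its higher arrays. With 1 array per diet, the difference between the pairs was not tested.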

How the results depend on the processing

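Under other filters, other normalizations and another choice of probe set, 322 of 327 values of counts and list medians moved by less than the spread of the values, or for counts by under 1.5 times. For single genes, 1280 of 1280 values moved by less than that spread, and 0 of the differences of 1.5-fold or more changed sign. A change of filter cannot alter the difference of a single gene, and few named genes had another probe set. Many of the 1280 values were therefore fixed in advance, and the normalizations are the main check on single genes. The number of probe sets 1.5-fold or more higher ranged from 125 to 266 and of those lower from 72 to 183. Without a filter on dim probe sets, 183 were lower, against 107 with it. With probe sets above the 50th percentile only, the median of cAMP-responsive genes was 0.12, that of bile duct markers 0.27 and that of lymphocyte and neutrophil markers 0.055, and with quantile normalization that of mitochondrial solute carriers was 0.042. Of 55 named genes at 1.5-fold, 54 stayed there with arrays centred on their medians, with quantile and with loess normalization. The medians of 7 lists near 0 changed sign under at least 1 setting, namely pyruvate dehydrogenase, stress response, clock, bile acid, fatty acid synthesis, hepatocyte and lymphocyte lists. For the HP-HS and NP-HS pair no replicate could be left out, and no paired analysis was possible because each of these diets has 1 array. A mean over the 3 protein pairs was not taken here. Array values carry no read depth. Signal near background can understate the differences of dim probe sets, and noise there can also enlarge them. Which of these prevailed was not tested.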

Other observations

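Some of the largest differences were on probe sets without a gene name in the annotation used. Probe set 10700410 had 6.42 on HP-HS and 4.52 on NP-HS, a difference of 1.90, beside -0.83 on low fat and -0.56 on sucrose plus fat. Probe set 10700333 had 4.42 on HP-HS and 6.17 on NP-HS, a difference of -1.75, beside 0.53 and 0.39 in the other pairs. Probe set 10701519 had 5.88 on HP-HS and 4.004 on NP-HS, a difference of 1.88, beside 0.46 on low fat and -1.54 on sucrose plus fat. Probe set 10707912 had 5.90 on HP-HS and 7.28 on NP-HS, a difference of -1.39, beside 0.47 and -0.05 in the other pairs. For 3 of these 4, 1 array of the high sucrose pair lay below the filter of log2 5.14.

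Further named genes outside the lists were past 1.5-fold. Upp2, a uridine phosphorylase, had 10.50 on HP-HS and 9.62 on NP-HS, a difference of 0.87, with 1.05 on low fat and -0.51 on sucrose plus fat. Nnmt, the nicotinamide methyltransferase, was higher by 0.63, 0.42 and 0.52 in the 3 pairs, and Inmt, the indolethylamine methyltransferase, by 0.60, 0.55 and 0.44. Itpr1, a calcium channel of the endoplasmic reticulum, differed by 0.72 and 0.69 on high sucrose and low fat and by -0.00 on sucrose plus fat. Cyp17a1, a steroid hydroxylase, was lower in the 3 pairs (-0.63, -0.81 and -1.06), and Nrep, a neuronal regeneration protein, was lower on high sucrose (-0.62). These genes were chosen after their values were seen.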
